A study of Mus musculus with 4 samples.

Results

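Mitochondrial biogenesis regulators are nuclear-encoded genes that set how much mitochondrial DNA (mtDNA) and how many respiratory proteins a cell makes. The 10 genes described here were taken by symbol from the 32290 genes of the deposited matrices, with no measured value used: Ppargc1a, Ppargc1b, Pprc1, Esrra, Nrf1, Gabpa, Tfam, Tfb2m, Polrmt and Sirt3. They were measured by single cell RNA sequencing (scRNAseq, droplet 3' counting of unique molecular identifiers, UMIs) of mouse adipose tissue, in 4 libraries with 1 library per group. The WT libraries came from mice labelled Tie2e-cre; TERT+/+; mTmG and the KO libraries from mice labelled Tie2e-cre; TERTfl/fl; mTmG, each from subcutaneous (SC) and intraperitoneal, visceral (IP) fat. All were male mice 7 months old that had been on a high-fat diet (HFD) for 5 months. Both genotypes carry the cre, whose Tie2 promoter is active in endothelial cells and in some blood-lineage cells, and the mTmG membrane reporter. The title of the KO IP library reads TERT-KO where that of KO SC reads EC-TERT-KO, with the same strain label. The number of mice behind a library, and whether the SC and IP libraries share mice, were not stated.

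The pathway has layers. PGC-1 alpha (Ppargc1a), PGC-1 beta (Ppargc1b) and PRC (Pprc1) are transcriptional coactivators that bind no DNA themselves and act through nuclear factors. ERR alpha (Esrra), nuclear respiratory factor 1 (Nrf1) and the DNA-binding subunit of GABP (Gabpa) are such factors and bind the promoters of respiratory genes. Their products include TFAM (Tfam), which packages mtDNA and bends its promoters, TFB2M (Tfb2m), which opens them, and the mitochondrial RNA polymerase (Polrmt). SIRT3 (Sirt3) is a deacetylase of mitochondrial enzymes. In fat, PGC-1 alpha is best known for raising mitochondrial content and heat production in brown and beige adipocytes.

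Where values of all libraries follow each other, their order is WT SC, KO SC, WT IP, KO IP. The libraries held between 10015201 and 15533961 UMIs, and 4119 of 4927 barcodes were kept, of which 93.2% fell in a class set by marker UMIs that include no gene of the 10. Adipose stromal cell-like (ASC-like, Pdgfra and collagen markers) cells numbered 103, 206, 288 and 248 in that order. T cell-like cells numbered 455, 1163, 122 and 125, and B cell-like cells 304, 464, 22 and 24. No cell passed as adipocyte-like and 25 passed as endothelial-like, so the tissue label stands for its stromal and immune fraction, and endothelial cells, in which the cre acts, were hardly sampled. Tert itself gave 3, 2, 8 and 9 UMIs in the kept cells, too few to check the genotype, and 3' tags need not cover the deleted part. In ASC-like cells haemoglobin mRNAs summed to 8183, 34.4, 325.2 and 66.4 CPM (UMIs per 1000000 UMIs of the class), highest in WT SC, and their part in the results was not tested.

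A property of the KO SC library touches the ASC-like results. Of its kept cells, 92 carried a barcode that was also kept in WT IP, with a median of 605.5 UMIs in KO SC and 35536 in WT IP. Of these, 75 were ASC-like in both libraries, so 75 of the 206 KO SC ASC-like cells were of this kind, and they held 2.6% of the ASC-like UMIs. Leaving them out of KO SC could change only those of the 80 log2 ratios compared below that use KO SC. These are ratios of ASC-like cells, whole or by progenitor set, and none moved by more than 0.0457. In KO IP, 29 of 248 ASC-like cells also carried at least 3 UMIs of mesothelial markers and held 24.9% of the ASC-like UMIs, against 2 of 288 cells and 1.06% in WT IP. Leaving these out moved 27 of the 80 ratios by more than 0.1, by up to 0.61, and the values without them stand beside the ratios of KO IP that the text turns on.

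On the GRCm38 assembly (mm10) all 10 are protein-coding. Ppargc1a lies at chr5:51454250-51567726 on the minus strand and Pprc1 at chr19:46044886-46072915 on the plus strand. Among the nuclear factors Esrra lies at chr19:6910977-6921813 (minus), Nrf1 at chr6:30047988-30153458 (plus) and Gabpa at chr16:84834925-84863779 (plus). Tfam lies at chr10:71225464-71238280, Tfb2m at chr1:179528055-179546267, Polrmt at chr10:79736123-79746581 and Sirt3 at chr7:140863666-140882309, all on the minus strand. Genes on the opposite strand that are also counted in the matrices overlap Pprc1 (Ldb1), Esrra (Trmt112), Gabpa (Atp5j) and Sirt3 (Ric8a and Psmd13).

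Promoters were searched for the letters bound by factors of the group itself. RefSeq windows of 300 bases, from 250 before to 50 after each start, were at hand for 9 of the 10 genes (11 windows, Ppargc1b without one). They were searched on both strands for the letters GCGCATGC (NRF1 core), CCGGAAG (GABP core), AAGGTCA (ERR half-site) and TGACGTCA (CRE). The NRF1 letters stood in 3 of 11 windows, those of Esrra, Polrmt and Tfb2m, and in 2.71% of all 32851 windows. The GABP letters stood in 4 of 11, those of Gabpa, Polrmt, Sirt3 and Tfam, and in 8.86% of all. The ERR and CRE letters stood in 0 of 11, and in 4.72% and 1.79% of all windows. These are matches of letters only. The 150 bases upstream of 3 starts are shown because they span the range of the group: Ppargc1a, whose stretch held none of these letters, Esrra with the NRF1 core, and Polrmt with both, the matches being in capitals. All 3 are on the minus strand of GRCm38.p6, at chr5:51567726-51567875, chr19:6921809-6921958 and chr10:79746582-79746731.
Ppargc1a: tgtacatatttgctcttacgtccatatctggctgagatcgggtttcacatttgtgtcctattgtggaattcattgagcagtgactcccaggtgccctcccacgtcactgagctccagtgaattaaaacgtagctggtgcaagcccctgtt
Esrra: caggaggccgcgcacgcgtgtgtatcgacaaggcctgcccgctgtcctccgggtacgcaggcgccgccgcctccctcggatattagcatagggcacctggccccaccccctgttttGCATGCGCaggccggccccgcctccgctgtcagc
Polrmt: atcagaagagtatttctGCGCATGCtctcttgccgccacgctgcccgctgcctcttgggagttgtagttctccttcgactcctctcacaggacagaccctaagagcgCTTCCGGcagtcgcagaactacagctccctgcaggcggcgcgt
The base composition differs too, with 48% G and C in the Ppargc1a stretch, 70.7% in Esrra and 59.3% in Polrmt.

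The first question was which cell types of the depot express the regulators. Levels are CPM of the summed UMIs of a class in a library, and are compared within a gene only, since 3' counts of different genes are not on 1 scale. The tests are edgeR quasi-likelihood tests over 16 class and library sums with library as a block, 12497 genes tested and Benjamini-Hochberg adjustment at 0.05. The 4 libraries of a class differ in genotype and depot, and nothing states that they are separate animals, so the SD over libraries and the p-values measure the spread between these samples only.

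The 3 coactivators differed in how their levels ranked over the cell types, though B cell-like cells of SC fat held all 3. Ppargc1b was low in ASC-like cells and higher in T cell-like and macrophage-like cells, Ppargc1a was highest in B cell-like cells and present in IP ASC-like cells, and Pprc1 was higher in ASC-like than in T cell-like cells. For Ppargc1a the B cell-like levels were 11.1 CPM (21 UMIs), 16.4 (40), 6.44 (1) and 20.7 (4). The ASC-like levels were 0 CPM, 2.18 (4 UMIs), 4.27 (27) and 9.49 (56). The T cell-like levels were 0.645 (3), 1.04 (10), 0 and 0.873 (1). The B cell-like and T cell-like ranges did not overlap, while the ASC-like range ran from 0 to values near those of B cell-like cells. Against T cell-like cells Ppargc1a was higher in B cell-like cells, by 4.0 on the log2 scale (SE 0.67, edgeR adjusted p = 0.000309), and in ASC-like cells, by 1.93 (SE 0.71, adjusted p = 0.0256). The latter call was lost without WT IP or without KO IP, with an adjusted p of up to 0.162. In macrophage-like cells Ppargc1a gave 0 UMIs in both libraries, and 3 counts there would be 2.37 CPM in WT IP and 10.2 in KO IP. WT IP ASC-like cells thus stood at least 1.80-fold above the macrophage-like limit, whereas the KO IP value of 9.49 CPM lay under its limit of 10.2.

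By cells, Ppargc1a had a UMI in 15 of 288 ASC-like cells of WT IP (5.21%, exact 95% interval 2.94 to 8.44) and in 21 of 248 of KO IP (8.47%, 5.32 to 12.7). In ASC-like cells of WT SC it was in 0 of 103, which allows a share of up to 3.52%, and in KO SC in 3 of 206 (1.46%). Its share in B cell-like cells was 15 of 304 (4.93%) in WT SC and 22 of 464 (4.74%) in KO SC. As a class with little of the gene, the T cell-like cells of the same libraries had a UMI in 2 of 455 (0.440%) and 8 of 1163 (0.688%) although their median depth was higher, at 9243 and 7858 UMIs against 5959 and 4903 in B cell-like cells. Macrophage-like cells, a class with a median of 15690 UMIs in WT IP, had it in 0 of 75, which allows a share of up to 4.80% and is too few cells to set against the ASC-like share of WT IP. With every cell thinned to 2000 UMIs the ASC-like shares of IP fat were 0.379% in WT and 1.36% in KO, and the B cell-like ones 1.66% in WT SC and 1.76% in KO SC. The thinned shares come from a single random draw, rest on few cells and are given without intervals, so they are not set against each other. Intervals and limits here and below cover counting error only.

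Ppargc1b, the constitutive relative of PGC-1 alpha, gave 0.541 CPM (1 UMI), 2.18 (4), 1.42 (9) and 1.02 (6) in ASC-like cells. Its T cell-like levels were 17.2 (80), 11.5 (111), 13.8 (14) and 6.11 (7). The ranges did not overlap, and the gene was lower in ASC-like cells by 3.10 on the log2 scale (SE 0.46, edgeR adjusted p = 1.88e-05). Macrophage-like cells of IP fat had 5.54 CPM (7 UMIs) in the WT library and 13.6 (4) in the KO library, and ASC-like cells were lower than these by 2.65 (SE 0.75, adjusted p = 0.00938). That second call was lost without KO IP, with an adjusted p of 0.0787. B cell-like cells had 8.95 CPM of Ppargc1b (17 UMIs) in WT SC and 8.19 (20) in KO SC. They did not differ from T cell-like cells past the test (-0.86, SE 0.45, edgeR adjusted p = 0.200). NK cell-like cells had between 5.28 and 13.8 CPM, from 7 UMIs in all. Pprc1, the growth-responsive member of the family, had 34.6 CPM (64 UMIs), 39.9 (73), 26.1 (165) and 27.3 (161) in ASC-like cells and 18.5 (86), 22.3 (214), 14.8 (15) and 20.1 (23) in T cell-like cells. It was higher in ASC-like cells by 0.73 (SE 0.20, adjusted p = 0.00373), with no overlap of the ranges. Macrophage-like cells, at 30.5 and 31.7 CPM of Pprc1, were not separated from ASC-like ones (ASC-like against macrophage-like -0.21, SE 0.29, edgeR adjusted p = 0.608). NK cell-like cells had 5.28 CPM (1 UMI, exact 95% interval 0.134 to 29.4) in WT SC and 9.21 (4 UMIs, 2.51 to 23.6) in WT IP, intervals that reach the T cell-like levels, while B cell-like cells lay between 25.8 and 26.3 in the 4 libraries.

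**Figure D1:**
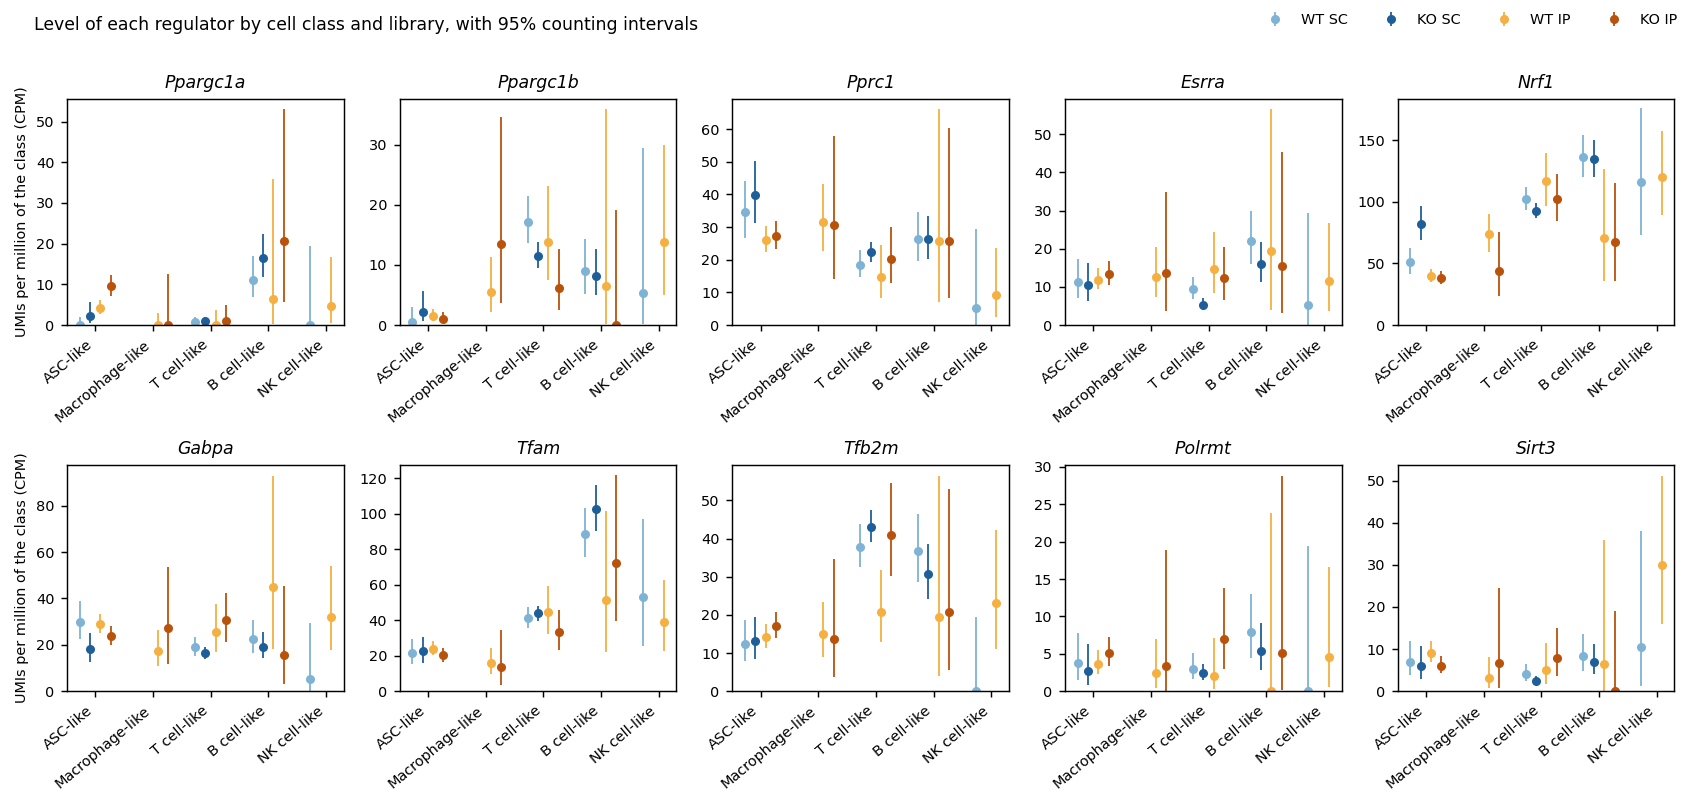
Level of each of the 10 genes (CPM of the class sum, linear axis from 0, a scale per gene) in ASC-like, macrophage-like, T cell-like, B cell-like and NK cell-like cells; each point is a library, coloured by genotype and depot, with its exact 95% counting interval. Ppargc1b lay between 0.541 and 2.18 CPM in ASC-like cells and between 6.11 and 17.2 in T cell-like cells, while Ppargc1a reached 9.49 in ASC-like and 20.7 in B cell-like cells, both in the KO IP library.

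Among the nuclear factors Nrf1 was lower in ASC-like than in T cell-like cells, Esrra was highest in B cell-like cells of the 5 classes plotted, and Gabpa showed no difference past the test in any contrast. Nrf1 had 51.4 CPM (95 UMIs), 81.9 (150), 40.02 (253) and 38.1 (225) in ASC-like cells. In T cell-like cells it had 102 (474), 92.4 (888), 117 (118) and 102 (117). Even the highest ASC-like library lay below the lowest T cell-like one, and the difference was -1.02 on the log2 scale (SE 0.21, edgeR adjusted p = 0.000417). B cell-like levels were 136 and 134 CPM in the SC libraries but 70.9 (11 UMIs) and 67.2 (13) in the IP libraries, and did not differ from T cell-like ones beyond the spread (-0.02, with a range of 2 SE either side of -0.48 to 0.43, the range given in brackets for the other differences here). Esrra, which co-operates with the PGC-1 coactivators, had 22.1 CPM (42 UMIs), 16.0 (39), 19.3 (3) and 15.5 (3) in B cell-like cells and 9.46 (44), 5.31 (51), 14.8 (15) and 12.2 (14) in T cell-like cells. It was higher in B cell-like cells by 1.03 (SE 0.29, adjusted p = 0.0156), and this call was lost without WT SC or without KO SC, with an adjusted p of up to 0.232. The Esrra level in ASC-like cells was 11.7 ± 1.26 CPM (SD, n = 4 libraries) against 10.5 ± 4.07 in T cell-like cells, a difference of 0.28 (-0.24 to 0.81). Gabpa stood at 25.1 ± 5.43 CPM in ASC-like, 23.0 ± 6.38 in T cell-like and 25.6 ± 13.3 in B cell-like cells (SD, n = 4 libraries each). Its ASC-like against T cell-like difference was 0.14 (-0.37 to 0.65).

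Of the 3 genes of the mtDNA transcription machinery, Tfam and Tfb2m were lower in ASC-like than in T cell-like cells, where 29.6% of all genes were. Tfam was highest in B cell-like, intermediate in T cell-like and lower in ASC-like and macrophage-like cells. It had 88.5 CPM (168 UMIs), 103 (251), 51.6 (8) and 72.4 (14) in B cell-like cells, 41.1 (191), 43.8 (421), 44.4 (45) and 33.2 (38) in T cell-like cells, and 21.6 (40), 22.4 (41), 23.9 (151) and 20.2 (119) in ASC-like cells. These 3 ranges did not overlap. Tfam was higher in B cell-like than in T cell-like cells by 0.96 on the log2 scale (SE 0.20, edgeR adjusted p = 0.00194), and lower in ASC-like cells by 0.85 (SE 0.20, adjusted p = 0.00112) and in macrophage-like cells by 1.27 (SE 0.35, adjusted p = 0.00978). The B cell-like call reached an adjusted p of 0.0510 without WT SC and the macrophage-like one 0.127 without WT IP. Macrophage-like cells, at 15.8 CPM (20 UMIs) in WT IP and 13.6 (4) in KO IP, were not separated from ASC-like ones (0.42, -0.27 to 1.11). Tfb2m had 12.4 CPM (23 UMIs), 13.1 (24), 14.2 (90) and 17.1 (101) in ASC-like cells against 37.9 (176), 43.1 (414), 20.7 (21) and 41.04 (47) in T cell-like cells, a difference of -1.30 (SE 0.31, adjusted p = 0.0014). Against T cell-like cells Tfb2m did not pass in B cell-like cells (-0.33, SE 0.33, edgeR adjusted p = 0.548) or macrophage-like cells (-1.14, SE 0.52, adjusted p = 0.108). ASC-like against macrophage-like cells did not pass either (-0.16, SE 0.51, adjusted p = 0.837). Polrmt gave few UMIs in every class and stood at 3.81 ± 0.969 CPM in ASC-like, 3.59 ± 2.30 in T cell-like and 4.60 ± 3.31 in B cell-like cells (SD, n = 4 libraries each). Its ASC-like against T cell-like interval ran from -0.71 to 1.09. Sirt3 had 7.08 ± 1.47 CPM in ASC-like and 4.84 ± 2.25 in T cell-like cells (SD, n = 4 libraries each), a difference of 0.66 (-0.15 to 1.46) that did not pass. The highest Sirt3 value of the 5 classes was 29.9 CPM (13 UMIs) in NK cell-like cells of WT IP, with 10.6 (2 UMIs) in WT SC.

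In counts, ASC-like against T cell-like cells put 2 of 10 genes higher (Ppargc1a and Pprc1) and 4 lower (Ppargc1b, Tfb2m, Nrf1 and Tfam), where 35% of all genes tested were called higher and 29.6% lower. B cell-like against T cell-like cells put 3 higher (Ppargc1a, Tfam and Esrra) and 0 lower, with 9.18% and 15.5% of all genes. Macrophage-like against T cell-like cells put 1 higher and 1 lower, with 17% and 14.4%: Tfam as above, and Pprc1 higher by 0.93 (SE 0.30, edgeR adjusted p = 0.0266), a call lost when any single library was left out (adjusted p up to 0.412). ASC-like against macrophage-like cells put 0 higher and 1 lower, Ppargc1b, with 22.3% and 17.6%. The contrasts against T cell-like cells share those sums, and so do the contrasts with macrophage-like cells.

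**Figure D2:**
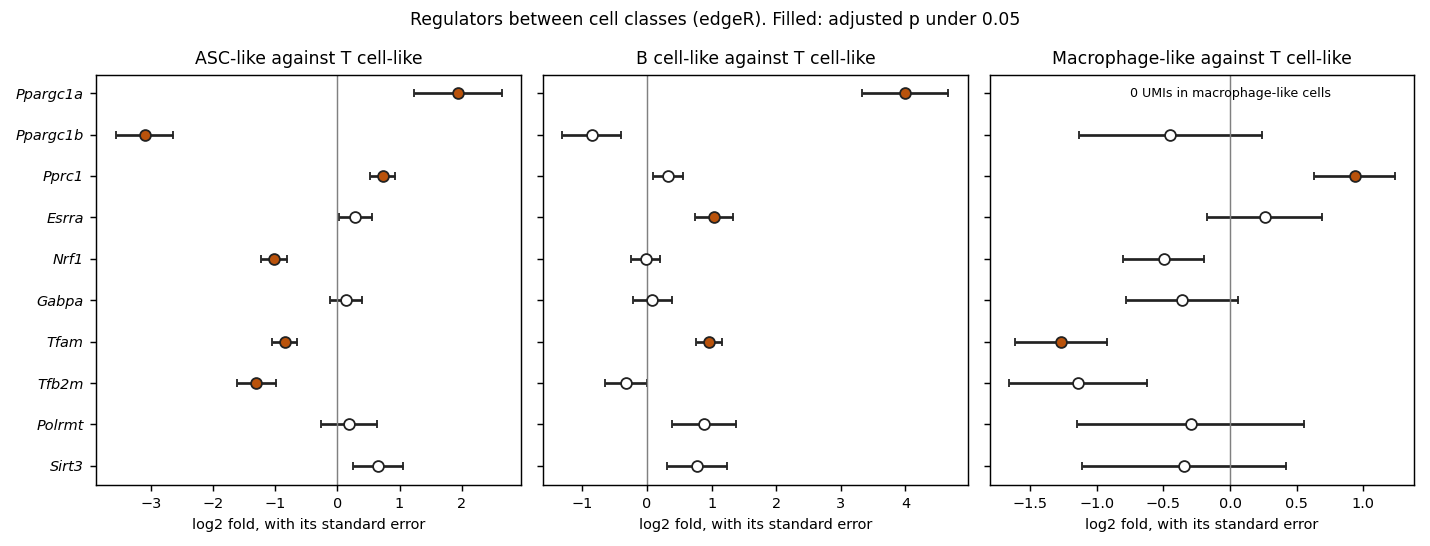
Log2 fold change (horizontal axis, a scale per panel) of each gene in ASC-like, B cell-like and macrophage-like cells against T cell-like cells, from the edgeR fit over 16 class and library sums; bars are 1 SE either side and filled points passed an adjusted p of 0.05. Ppargc1b stood at -3.10 and Ppargc1a at 1.93 in ASC-like cells, Ppargc1a stood at 4.0 in B cell-like cells, and it is not drawn for macrophage-like cells, which held 0 of its UMIs.

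The genes downstream of the 10 were read from lists drawn up from textbook knowledge. Of the 13 mtDNA-encoded mRNAs, 0 were higher and 7 lower in ASC-like than in T cell-like cells, where 35% and 29.6% of all genes were, with a median log2 difference of -0.43 against 0.09 over all genes. The largest fall was that of mt-Nd5, a complex I subunit, by 0.75 (SE 0.19, edgeR adjusted p = 0.00252). In B cell-like against T cell-like cells mt-Nd5 was the 1 mRNA of 13 that passed, higher by 0.64 (SE 0.19, adjusted p = 0.0206), where 9.18% of all genes were higher and 15.5% lower. Of 12 other genes of mtDNA transcription and replication tested, 3 were higher in ASC-like than in T cell-like cells (Mterf4, Slirp and Mgme1) and 3 lower (Mterf1a, Lrpprc and Polg2), again beside 35% and 29.6% of all genes, with a median of -0.36. The extremes were Mgme1, an exonuclease of mtDNA replication, at 1.52 (SE 0.36, adjusted p = 0.00131), and Mterf1a, which binds mtDNA to end transcription, at -1.96 (SE 0.49, adjusted p = 0.00217). Of 16 nuclear-encoded respiratory genes 2 were higher (Uqcrb and Vdac1) and 3 lower (Cycs, Idh3a and Atp5a1), against 35% and 29.6% of all genes, with cytochrome c (Cycs) at -0.81 (SE 0.17, adjusted p = 0.000458). Macrophage-like cells passed T cell-like cells in 2 of these 16 (Uqcrb and Sdhd) and fell below in 1 (Idh3a), beside 17% and 14.4% of all genes.

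Of the genes that control or partner the PGC-1 coactivators, 4 of 18 tested were higher in ASC-like than in T cell-like cells (Crtc1, Nfe2l2, Pparg and Prkaa2) and 6 lower (Creb1, Ncor1, Med1, Foxo1, Ppard and Yy1), against 35% and 29.6% of all genes. Prkaa2, the alpha 2 catalytic subunit of AMP-activated kinase, was at 8.21 (SE 0.77, edgeR adjusted p = 1.65e-06), and Creb1, the cAMP-responsive factor, at -1.40 (SE 0.18, adjusted p = 3.75e-06). In B cell-like against T cell-like cells 0 of these 18 were higher and 3 lower (Nrip1, Ncor1 and Crtc3), against 9.18% and 15.5% of all genes. Nrip1, a corepressor also known as RIP140, had the largest of these falls, 2.24 (SE 0.28, adjusted p = 1.23e-05).

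Within ASC-like cells of IP fat nearly all Ppargc1a UMIs lay in cells with adipogenic markers. Cells were placed by the UMIs of Fabp4, Lpl, Icam1 and Cd36 (committed-like) against Dpp4, Pi16, Cd55, Sema3c and Anxa3 (early progenitor-like), neither of which holds a gene of the 10. In KO IP, 112 committed-like cells held 54 Ppargc1a UMIs (21.2 CPM) and 115 early progenitor-like cells held 2 (0.606 CPM), a log2 ratio of 4.82 with a 95% counting interval of 3.21 to 8.21. In WT IP, 201 committed-like cells held all 27 UMIs (5.67 CPM) and 62 early progenitor-like cells held 0, so that committed-like cells stood at least 2.82-fold above the limit of 3 counts (2.01 CPM). The SC libraries could not show such a split, since WT SC held 0 UMIs in either set and KO SC held 0 in 58 committed-like and 2 in 100 early progenitor-like cells. Each ratio is within 1 library and has no replicate check.

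In IP fat the other regulators compared had smaller ratios than Ppargc1a. Pprc1, Gabpa and Nrf1 shared its sign in KO IP but not in WT IP. Pprc1 was lower in committed-like cells of WT IP (-0.69, -1.17 to -0.19) and higher in those of KO IP (0.61, 0.14 to 1.08). Gabpa had the same pattern, at -0.54 (-0.99 to -0.05) and 0.54 (0.04 to 1.05). Nrf1 was at -0.56 (-0.95 to -0.16) and 0.87 (0.47 to 1.28) in the same libraries. These opposite signs were not tested against each other. In the early progenitor-like set of KO IP, 28 of the 115 cells were mesothelial-marker cells and held 44.6% of its UMIs, against 2 of 62 cells and 4.47% in WT IP. Without them the KO IP values were 0.35 for Nrf1, 0.42 for Pprc1, 0.51 for Gabpa and 4.71 for Ppargc1a. Tfam leaned to committed-like cells in SC fat, at 0.91 (-0.07 to 1.87) in WT SC and 1.32 (0.35 to 2.29) in KO SC, where it was 1.37 without the shared-barcode cells, and was near 0 in IP fat, at -0.06 and 0.11, the latter 0.23 without the mesothelial-marker cells. Of the genes with at least 20 UMIs, 3 of 6 passed 1.5-fold in WT SC, 2 of 5 in KO SC, 2 of 9 in WT IP and 3 of 9 in KO IP, where 43.2%, 45.1%, 29.2% and 30.9% of all genes did. Without the mesothelial-marker cells Pprc1 and Nrf1 were no longer past 1.5-fold in KO IP.

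**Figure D3:**
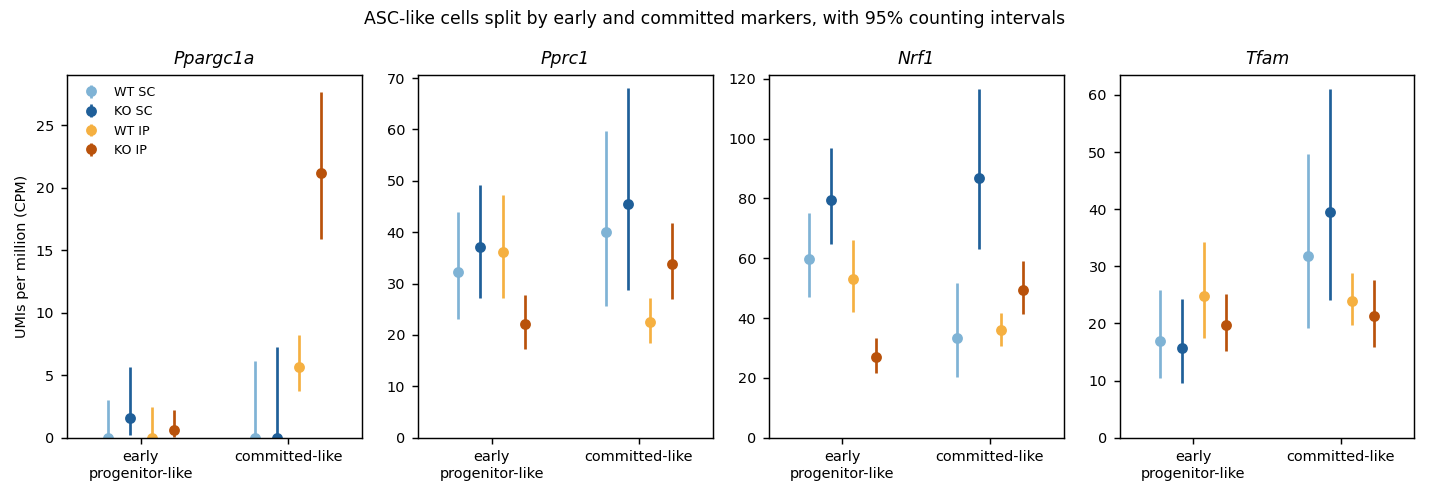
Levels (CPM, linear axis from 0, a scale per gene) of Ppargc1a, Pprc1, Nrf1 and Tfam in early progenitor-like and committed-like ASC-like cells; each point is a library with its exact 95% counting interval. Ppargc1a reached 21.2 CPM in committed-like cells of KO IP and 5.67 in those of WT IP, and lay at or under 1.58 in every early progenitor-like set.

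The Ppargc1a UMIs sat in few cells. If the 56 UMIs of KO IP ASC-like cells were spread by each cell's depth, 47.1 cells would carry them, and 21 did (44.6%). The median of 3987 genes of like total was 89.9% and 4.51% of them were at or below the Ppargc1a value. In WT IP 15 cells carried 27 UMIs where 25.4 would by depth (59.0%), and in B cell-like cells 22 against 37.9 in KO SC (58.0%) and 15 against 20.2 in WT SC (74.2%). The 3 highest cells held 22 of 56 UMIs in KO IP (39.3%), with 9 in the highest, 11 of 27 in WT IP (40.7%) and 19 of 40 in B cell-like cells of KO SC (47.5%). Polrmt and Sirt3, with few UMIs, were spread more evenly. In the sums with at least 20 UMIs, Sirt3 reached between 97.02% and 105.8% of the number given by depth and Polrmt between 98.96% and 101.2%, while Tfam reached between 78.7% and 105.1%, Tfb2m between 77.4% and 104.2% and Nrf1 between 73.6% and 90.0%. Counting intervals treat UMIs as independent and are too narrow for a gene whose UMIs sit in few cells.

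**Figure D4:**
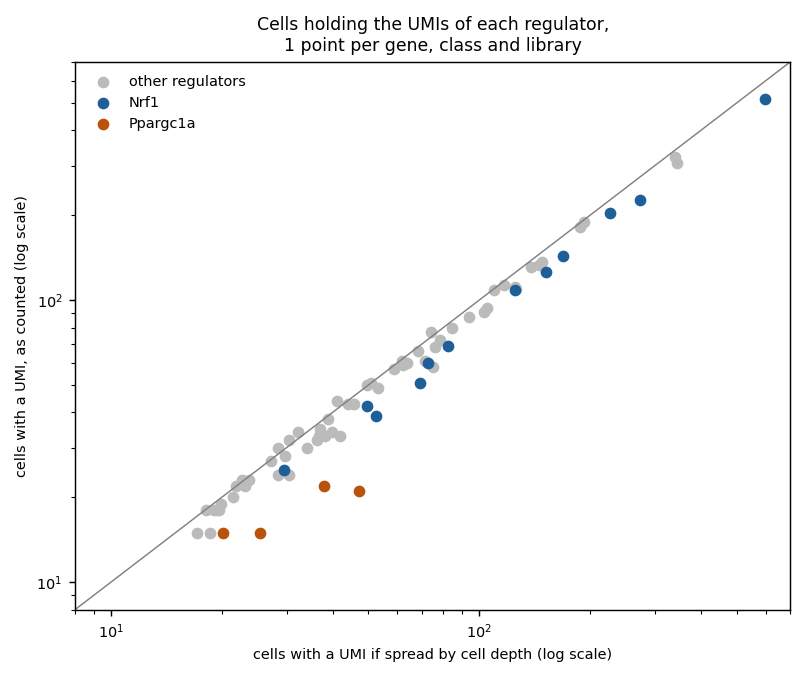
Cells with at least 1 UMI of a gene as counted (vertical axis) against the number given by spreading its UMIs over cells by depth (horizontal axis), both on log scales, with 1 point per gene, class and library with at least 20 UMIs; the line marks equality. The 4 Ppargc1a points lay between 44.6% and 74.2% of the number given by depth, and the 12 Nrf1 points between 73.6% and 90.0%. Genes of like total had medians between 89.9% and 93.3% for the Ppargc1a points and between 86.7% and 91.4% for the Nrf1 points.

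The comparison of KO with WT asks how loss of Tert driven by Tie2e-cre relates to these regulators in the stromal and immune cells sampled. Blood-lineage cells among them may have lost Tert themselves, which could not be checked from the few Tert UMIs. With 1 library per group nothing was tested within a depot, where genotype cannot be told apart from library. Ratios are log2 of KO over WT CPM after adding 0.5 UMI, with exact 95% counting intervals, for genes whose UMIs in the compared libraries came to 20 or more. In ASC-like cells of IP fat Ppargc1a was higher in the KO library while the intervals of the other 8 compared genes held 0, and in SC fat Nrf1 was higher and Gabpa lower in the KO library.

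In IP ASC-like cells the 56 and 27 Ppargc1a UMIs gave a ratio of 1.14 (0.46 to 1.87), which was 1.51 without the mesothelial-marker cells. It was the 1 gene of 9 past 1.5-fold, where 21.5% of all genes were. Pprc1 was at 0.06 (-0.26 to 0.39), Esrra at 0.17 (-0.30 to 0.65), Gabpa at -0.29 (-0.62 to 0.04) and Nrf1 at -0.07 (-0.34 to 0.19), which became 0.23, 0.29, -0.16 and 0.26 without the mesothelial-marker cells. Below these nuclear factors, Tfam was at -0.24 (-0.60 to 0.11), Tfb2m at 0.26 (-0.16 to 0.69), Polrmt at 0.48 (-0.35 to 1.33) and Sirt3 at -0.58 (-1.23 to 0.04), and without those cells Tfam was at -0.28, Tfb2m at 0.05 and Sirt3 at -0.46. The median of the 9 genes was 0.06 and that of all genes 0.05. With every cell given equal weight, Nrf1 was at 0.31, Gabpa at 0.48 and Tfam at -0.98 in IP fat. These lay beyond the intervals of the summed UMIs. Ppargc1a was at 1.39 in that weighting, and the other compared genes stayed within their intervals. The mesothelial-marker cells were kept there. In SC ASC-like cells Nrf1 was at 0.67 (0.29 to 1.06), from 150 and 95 UMIs, and Gabpa at -0.71 (-1.39 to -0.07), from 33 and 55. Without the KO SC cells that share barcodes with WT IP these were 0.68 and -0.68. They were the 2 of 7 genes past 1.5-fold, with 18.2% of all genes. Pprc1 was at 0.20 (-0.30 to 0.71), Tfam at 0.05 (-0.61 to 0.72) and Tfb2m at 0.07 (-0.81 to 0.97). With every cell given equal weight the SC values were 0.91 for Nrf1, -1.40 for Gabpa, 0.90 for Pprc1, -1.07 for Tfam and 0.90 for Tfb2m, of which those of Gabpa, Pprc1 and Tfam lay beyond the intervals of the summed UMIs. In that weighting the shared-barcode cells counted as 75 of the 206 KO SC cells, and it was not run without them. Ppargc1a, at 4 UMIs in KO SC and 0 in WT SC, could not be compared at this depth.

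Over both depots, KO was also set against WT within a class in an edgeR quasi-likelihood fit of the 4 libraries with depot as a block, chosen after seeing the data. It leaves 1 residual degree of freedom, and libraries of 1 genotype may share mice. Of the 10 genes, 9 could be tested in ASC-like, 8 in T cell-like and 7 in B cell-like cells, and 0 passed in any, with 0 also at an unadjusted p under 0.05. The fit called 0.398% of all genes higher and 0.108% lower in KO in ASC-like cells, 0.465% and 0.396% in T cell-like cells and 0.0921% and 0.184% in B cell-like cells. In ASC-like cells Ppargc1a was at 1.38 (SE 0.62, edgeR adjusted p = 0.584), Gabpa at -0.48 (SE 0.22, adjusted p = 0.592) and Nrf1 at 0.24 (SE 0.22, adjusted p = 0.837). Without the mesothelial-marker cells Ppargc1a was at 1.66 (SE 0.57, unadjusted p = 0.00785, edgeR adjusted p = 0.227) and Nrf1 at 0.45 (SE 0.18, unadjusted p = 0.0224, adjusted p = 0.379), the 2 genes then under an unadjusted p of 0.05.

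Committed-like cells held 54 of the 56 KO and 27 of the 27 WT Ppargc1a UMIs of IP ASC-like cells. In these the KO library had 21.2 CPM (54 UMIs, 112 cells) and the WT library 5.67 (27 UMIs, 201 cells), a log2 ratio of 1.89 (1.21 to 2.63), and no mesothelial-marker cell fell in this set in either library. Pprc1 was at 0.59 (0.16 to 1.01) and Nrf1 at 0.46 (0.12 to 0.80) in the same cells, and Gabpa at 0.10 (-0.34 to 0.52). In early progenitor-like cells the same 3 genes lay below 0, at -0.71 (-1.24 to -0.18) for Pprc1, -0.97 (-1.43 to -0.52) for Nrf1 and -0.98 (-1.52 to -0.44) for Gabpa. Leaving out the mesothelial-marker cells gave -0.48, -0.36 and -0.86. The difference between both sets was not tested. Past 1.5-fold were 3 of 9 genes in committed-like cells (Ppargc1a, Pprc1 and Polrmt) and 4 of 8 in early progenitor-like cells (Pprc1, Nrf1, Gabpa and Sirt3), where 21.8% and 29.3% of all genes were. Without the mesothelial-marker cells Pprc1 and Nrf1 were no longer past 1.5-fold in early progenitor-like cells.

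**Figure D5:**
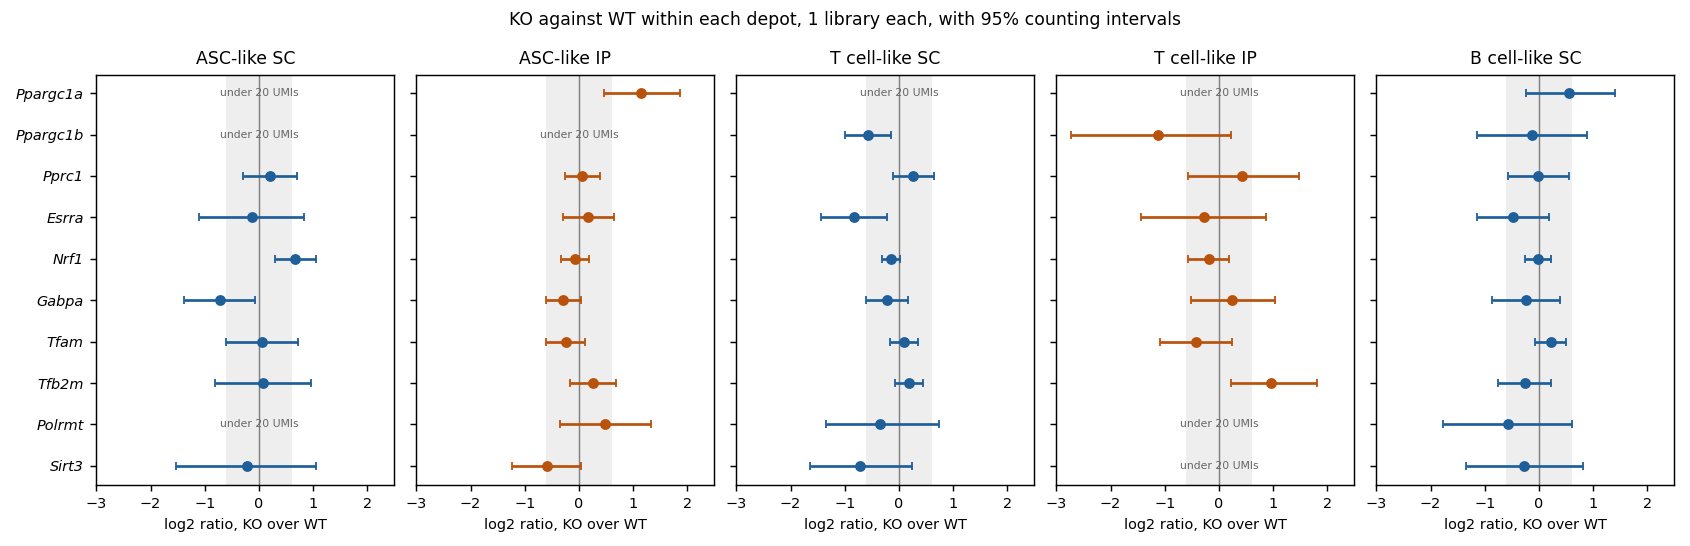
Log2 ratio of KO to WT (horizontal axis) for each gene in ASC-like, T cell-like and B cell-like cells of a depot, with exact 95% counting intervals, 1 library per genotype; the shaded band marks ratios within 1.5-fold and genes under 20 UMIs are marked as such. In ASC-like cells Ppargc1a was at 1.14 in IP fat, and Nrf1 at 0.67 and Gabpa at -0.71 in SC fat.

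In T cell-like cells the intervals of Ppargc1b and Esrra lay below 0 in SC but not in IP fat, and in SC B cell-like cells no gene passed 1.5-fold. In SC T cell-like cells Ppargc1b was at -0.58 (-1.003 to -0.14), from 111 and 80 UMIs in 1163 and 455 cells, and Esrra at -0.84 (-1.45 to -0.22), from 51 and 44. The median of all genes was -0.14 there, which these ratios include. Esrra and Sirt3 (-0.72, -1.64 to 0.24) were the 2 of 9 past 1.5-fold, with 19% of all genes. In IP T cell-like cells Tfb2m was at 0.97 (0.21 to 1.80), from 47 and 21 UMIs, and Ppargc1b at -1.13 (-2.73 to 0.23), from 7 and 14, which made 2 of 7 past 1.5-fold with 25.9% of all genes. Esrra was at -0.27 (-1.44 to 0.88) there, from 14 and 15 UMIs. Nrf1, with the most UMIs, was at -0.14 (-0.30 to 0.02) in SC and -0.19 (-0.57 to 0.19) in IP T cell-like cells. In SC B cell-like cells 0 of 10 genes passed 1.5-fold, where 16% of all genes did. Every interval there held 0, among them Ppargc1a at 0.55 (-0.23 to 1.40) and Tfam at 0.21 (-0.07 to 0.51).

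Transcripts made from mtDNA were compared between genotypes beside all genes. The 13 mtDNA-encoded mRNAs had a median log2 ratio of -0.05 in SC and -0.04 in IP ASC-like cells, with 0 of 13 past 1.5-fold in either, where 18.2% and 21.5% of all genes were. In SC T cell-like cells the median was -0.06, in IP T cell-like cells -0.27 and in SC B cell-like cells 0.00, and mt-Nd4l of B cell-like cells, at 0.62 from 623 and 314 UMIs, was the 1 past 1.5-fold in these 3. Of all genes 19%, 25.9% and 16% were past it there. Those shares include genes with as few as 20 UMIs, whose ratios vary more by counting than those of abundant mRNAs such as mt-Co2 (18347 and 22293 UMIs in IP ASC-like cells). The other genes of mtDNA transcription and replication had a median of 0.55 in IP T cell-like cells, where all 6 compared were above 0 and that of all genes was 0.12, with Polg2, the accessory subunit of the mtDNA polymerase, at 1.22 from 85 and 32 UMIs. Among nuclear-encoded respiratory genes the largest ratio in IP ASC-like cells was that of the outer membrane channel Vdac1, 0.69 from 671 and 445 UMIs, against a list median of -0.13. The mitophagy receptor Bnip3 was at 1.17 in the same cells, from 186 and 88 UMIs.

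Between depots Ppargc1a was higher in IP than in SC ASC-like cells. In WT it gave 27 UMIs in IP against 0 in SC, at least 2.63-fold over the limit of 3 counts (1.62 CPM), and in KO 56 against 4, a log2 ratio of 1.96 (0.68 to 4.04). Nrf1 went the other way, at -0.36 (-0.71 to -0.004) in WT and -1.10 (-1.41 to -0.80) in KO, and so did Pprc1, at -0.41 (-0.83 to 0.03) and -0.55 (-0.95 to -0.13). For KO the values without the shared-barcode cells were 1.92 for Ppargc1a, -1.11 for Nrf1 and -0.53 for Pprc1, and without the mesothelial-marker cells 2.32, -0.80 and -0.43. With cells weighted equally Nrf1 was at 0.23 in WT and -0.36 in KO, and Pprc1 at 0.07 and -0.64, so that for these genes the sign in WT depended on the weighting. The equally weighted KO values included the shared-barcode cells of KO SC, each with the weight of a full cell. The committed-like share of ASC-like cells differed, with 36 committed-like and 62 early progenitor-like cells in WT SC and 201 and 62 in WT IP, and its part in these ratios was not tested. Past 1.5-fold were 1 of 9 genes in WT and 3 of 9 in KO (Ppargc1a, Nrf1 and Polrmt), with 33.4% and 36% of all genes. The mtDNA-encoded mRNAs had medians of 0.34 in WT and 0.39 in KO ASC-like cells, with 12 and 13 of 13 above 0, where the medians of all genes were 0.07 and 0.12. These medians were not run without the mesothelial-marker or the shared-barcode cells.

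In T cell-like cells of WT Tfb2m was lower in IP (-0.84, -1.60 to -0.21) and Esrra was at 0.68 (-0.31 to 1.52), 2 of 8 past 1.5-fold with 29.1% of all genes. In KO, Esrra (1.24, 0.24 to 2.08), Gabpa (0.91, 0.32 to 1.43), Polrmt (1.60, 0.18 to 2.76) and Sirt3 (1.70, 0.36 to 2.81) were higher in IP and Ppargc1b was at -0.82 (-2.27 to 0.17). These were 5 of 9, with 43.8% of all genes past 1.5-fold and a median of all genes at 0.31. The mtDNA-encoded mRNAs leaned to SC in both genotypes, with medians of -0.21 and -0.44. Polrmt and Sirt3 rested on 8 and 9 UMIs in KO IP.

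Across the 12 class and library sums with at least 30 cells, the 3 genes whose log2(CPM + 1) was most like that of Ppargc1a were Snn (Pearson r = 0.91), Cyb5b (0.88) and Atf7 (0.87). For Nrf1 they were Rnf169 (0.98), Tmem243 (0.97) and Tent4b (0.97), and for Tfb2m Hspe1 (0.98), L3mbtl2 (0.94) and Rbm45 (0.94). Among the 10 themselves the highest pair was Ppargc1b with Nrf1 (r = 0.85), followed by Nrf1 with Tfam (0.77), and the lowest was Ppargc1b with Pprc1 (-0.69). The sums share libraries and differ in depth, so these values are descriptions.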

How the data were processed

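Gene by cell matrices of UMI counts were deposited by the authors for each library. The file headers name Cell Ranger 7.0.0. The submitters' processing notes also name STAR 2.6 and mm10, and the protocol names both cells and nuclei. Kept barcodes had 200 genes or more and mitochondrial UMIs of no more than 25%, and doublets called by Scrublet at an expected rate of 5% (17 cells, 0.411%) were removed with scanpy 1.11.5. A class needed at least 3 UMIs from at least 2 of its markers and at least 2 times the next class. UMIs were summed per class and library. Classes with at least 20 cells were tested with edgeR 4.0.16 (TMM, filterByExpr, quasi-likelihood, library as block, Benjamini-Hochberg), with DESeq2 1.42.0 as an alternative. The edgeR test, but not DESeq2, was also run on simulated data. Genotype and depot ratios needed at least 30 cells in both libraries and had no test. Genotype was also fitted in edgeR within a class over the 4 libraries with depot as a block, tested on simulated data in the same way. Identifiers were matched to GENCODE vM21 (32235 of 32290). The genes, lists and gates were chosen with earlier results of these data known. Named genes of a list were its largest rise and fall, with at least 100 UMIs for ratios. Some results of the lists and of the most alike genes are not reported here.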

Additional observations from a re-analysis of the deposited data

Results flagged for a closer look

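The KO SC and WT IP libraries shared 92 kept cell barcodes, while the other pairs of libraries shared 0 or 1. It stood out as a signal that lies outside the comparisons and that the other pairs of libraries do not show. The median UMI count of these cells was 605.5 in KO SC and 35536 in WT IP, with a median ratio of 58.5. In ASC-like cells of KO SC they numbered 75 of 206, held 2.6% of the UMIs and carried 3 of 150 Nrf1 UMIs, 0 of 33 Gabpa UMIs and 0 of 4 Ppargc1a UMIs.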

How the results depend on the processing

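The count of the 10 genes called in ASC-like against T cell-like cells was 6, and 5 to 7 over 14 alternatives (5 without WT IP, 7 with DESeq2); Nrf1, Ppargc1b, Pprc1, Tfam and Tfb2m passed in 14 of 14. For ASC-like against macrophage-like cells the count of 1 became 2 with RLE scaling, without a filter on low counts and without mesothelial-marker cells, 0 with a stricter class gate, and 0 to 2 with each library left out. For macrophage-like against T cell-like cells the count of 2 became 1 without a filter, 0 with a stricter gate, and 0 to 1 with each library left out. For B cell-like against T cell-like cells it was 1 to 3 with each library left out. The median KO over WT ratio moved to -0.30 in SC ASC-like cells with cells weighted equally, to 0.23 in IP ASC-like cells without mesothelial-marker cells and 0.31 with cells weighted equally, to -0.089 in SC T cell-like cells with median-of-ratios scaling, and to 0.24 and 0.33 in IP T cell-like cells with a minimum of 10 UMIs and with none. The median IP over SC ratio in KO T cell-like cells moved to -0.14 with median-of-ratios scaling. Nrf1 in IP over SC ASC-like cells of WT reversed to 0.23 with cells weighted equally. The cause was not tested. Equal weighting was run only with the shared-barcode cells of KO SC kept. Of the other values, 1710 stayed on their side of the call or within their counting interval (1671 of them with the sign of the reported value), 15 moved, 15 lost and 6 gained a call. Leaving out mesothelial-marker cells, or shared-barcode cells from KO SC only, and the genotype fit with depot as a block were chosen after seeing the data. That fit called 0 of the 9, 8 and 7 genes tested in ASC-like, T cell-like and B cell-like cells under each of 3 alternatives. Leaving out mesothelial-marker cells removed ASC-like cells only and so could not change the T cell-like and B cell-like fits. The B cell-like values were also unchanged without the shared-barcode cells. The labels give no replicate numbers to pair samples by. Macrophage-like KO over WT ratios were not run, with 24 cells in KO IP. Depth limited Ppargc1a in SC fat and Polrmt and Sirt3 throughout.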
